A study of Mus musculus with 16 samples.

Results

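The discs of mice that had lost Sox9 were examined for 8 genes best known from myelinating and supporting glia: Plekhb1, Sh3tc2, S100b, S100a1, Mbp, Pmp22, Ncmap and Cmtm5. These 8 of 19505 named genes were chosen by symbol. Plekhb1, S100b and Sh3tc2 were selected on their lower signal in the knock-out arrays analysed here, so changes between genotypes are given for all 8 members as descriptions, without a test. Each member had a single probe set on the array. The arrays measured RNA of nucleus pulposus (NP), the gelatinous core of the intervertebral disc, and annulus fibrosus (AF), the lamellar ring around it, micro-dissected from lumbar and caudal discs and pooled within each of 8 female mice aged 3 to 4 months. Control animals (CTR) were Sox9fl/fl with no Cre named, and knock-out animals (cKO) were AcanCreERT2 Sox9fl/fl, in which a tamoxifen-inducible Cre driven by the aggrecan gene Acan removes Sox9 from Acan-expressing cells. Tamoxifen on consecutive days is named for the cKO animals, and whether CTR animals received it is not stated, so the drug, the Cre and the loss of Sox9 cannot be told apart. Discs were collected 5 days after injections began. Each of the 4 groups (CTR and cKO of NP, CTR and cKO of AF) held 4 arrays, and the NP and AF arrays that share a replicate number within a genotype came from the same animal.

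Sox9 is the transcription factor that holds cells in the chondrocyte lineage, and it also acts early in glial specification. Myelin is the stacked membrane that Schwann cells in nerves and oligodendrocytes in the central nervous system wrap around axons, held together by proteins such as Mbp and Pmp22. The members divide into membrane and trafficking proteins of myelinating cells (Plekhb1, Sh3tc2), calcium-binding proteins of the S100 family that also mark cartilage (S100b, S100a1), structural myelin proteins (Mbp, Pmp22) and small membrane proteins found in myelinating glia (Ncmap, Cmtm5). Several are also transcribed outside glia, S100b and Pmp22 most familiarly.

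RefSeq promoter windows on GRCm38.p6, running from 250 bases before to 50 bases after an annotated start, were held for 6 of the 8 members, 12 windows in all. They were searched on both strands for AACAAT, for ACAAAG and for ACAATG, which are cores that the SOX family recognises. The windows of Plekhb1 and S100b are shown because both genes were lower in cKO arrays of both tissues. The first Plekhb1 window is chr7:100662345-100662644 on the minus strand, the second is chr7:100656916-100657215 on the minus strand, and that of S100b is chr10:76253586-76253885 on the plus strand. Capitals mark the only motif match among the 12 windows.
Plekhb1, first window: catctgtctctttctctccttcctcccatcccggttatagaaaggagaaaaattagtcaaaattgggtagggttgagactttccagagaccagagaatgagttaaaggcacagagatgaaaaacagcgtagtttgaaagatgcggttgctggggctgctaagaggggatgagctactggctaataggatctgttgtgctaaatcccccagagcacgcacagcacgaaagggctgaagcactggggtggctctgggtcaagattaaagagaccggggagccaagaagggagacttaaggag
Plekhb1, second window: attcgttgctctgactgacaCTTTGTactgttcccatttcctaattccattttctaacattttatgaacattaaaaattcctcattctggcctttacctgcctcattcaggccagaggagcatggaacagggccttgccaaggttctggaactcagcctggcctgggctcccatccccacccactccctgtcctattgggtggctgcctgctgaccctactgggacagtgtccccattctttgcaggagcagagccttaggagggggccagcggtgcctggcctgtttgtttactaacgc
S100b: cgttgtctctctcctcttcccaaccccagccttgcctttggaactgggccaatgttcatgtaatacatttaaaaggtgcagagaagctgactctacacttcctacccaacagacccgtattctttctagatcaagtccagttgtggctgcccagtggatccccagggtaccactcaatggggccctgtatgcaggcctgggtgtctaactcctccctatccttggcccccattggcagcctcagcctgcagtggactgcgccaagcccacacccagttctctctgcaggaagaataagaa
The match in the second Plekhb1 window is ACAAAG read on the opposite strand, with its first base at position -230 from the start. Of the 32851 RefSeq windows of this length that were searched, with a whole chromosome left out, 18.7% held ACAAAG. The shares were 10.7% for AACAAT and 12.6% for ACAATG, and 33.2% held any of the 3. The other 11 windows of the members held none of these motifs.

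The deposited signals are on a log2 scale, so a difference of 1 is a 2-fold difference. As a guide to background, the medians of 5222 negative control probe sets lay between 6.14 and 6.59 on the 16 arrays, and their 95th percentiles lay between 9.74 and 10.78. Sox9 itself was at 16.19, 16.14, 16.79 and 15.95 in NP CTR and at 9.69, 9.55, 10.12 and 9.65 in NP cKO. It was at 17.25, 17.45, 16.59 and 16.39 in AF CTR and at 12.10, 11.43, 12.99 and 12.44 in AF cKO, so every cKO array was below every CTR array of its tissue. The sources used here do not place the Sox9 probe set relative to the deleted part of the gene. Acan, the cartilage proteoglycan of both compartments, was at 16.37 or higher on every array. AF CTR replicate 1 stood apart from its group: it had the highest mean of the cartilage list (13.55, the others between 10.94 and 12.59), of the neutrophil list (12.02, the others between 6.04 and 7.74) and of the osteoblast list (12.52, the others between 9.61 and 11.83). The AF values of the members are therefore also given without it. NP cKO replicate 4 had raised signal of some genes that are bright in AF, with decorin (Dcn) at 18.97 and Comp at 11.53. The mean of the annulus list was 9.81 on that array, beside 12.50 to 13.29 over the AF CTR arrays. Among the other annulus genes, Col1a1, Col1a2 and Mkx stayed well below AF, at most 10.02, 9.39 and 5.95 in NP cKO. Their AF CTR means were 17.22, 18.10 and 8.46. Fmod did not, with means of 17.43 in NP CTR, 16.99 in NP cKO and 18.02 in AF CTR. Lum reached 8.74 in NP cKO, beside at most 6.90 in NP CTR and a mean of 11.63 in AF CTR. Dcn was also at 14.12 on NP cKO replicate 3 and at 10.65 on NP CTR replicate 3, and at 6.18 to 7.61 on the other 5 NP arrays. Lower signal in such tissue RNA can come from fewer cells of a type or from less RNA per cell, which cannot be told apart.

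Plekhb1, a membrane-associated pleckstrin homology protein, had the largest mean drop of the 8 members in both tissues with all arrays in. Its signal was 12.11, 12.30, 12.81 and 11.38 in NP CTR and 9.48, 8.57, 9.33 and 9.22 in NP cKO, a change of -3.00 on the log2 scale (SE 0.33), 8.01-fold lower. It was 11.77, 10.82, 11.77 and 10.84 in AF CTR and 8.56, 9.48, 8.37 and 9.32 in AF cKO, a change of -2.37 (SE 0.33), 5.15-fold lower. In both tissues all 4 cKO arrays were below all 4 CTR arrays, by a gap wider than either group's own range in NP. Without AF CTR replicate 1 the AF change was -2.21. Without AF CTR replicate 3 it was also -2.21, less than the -2.71 of Cmtm5 and the -2.66 of Ncmap.

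Sh3tc2, an endosomal recycling adaptor of Schwann cells, was dim. Its signal was 7.59, 7.09, 7.98 and 7.10 in NP CTR and 5.94, 5.92, 5.05 and 6.22 in NP cKO, a change of -1.66 (SE 0.29). The AF CTR arrays read 5.82, 6.97, 6.69 and 6.31 and the AF cKO arrays 5.23, 5.58, 4.73 and 5.15, a change of -1.28 (SE 0.29), or -1.48 without AF CTR replicate 1. The genotypes did not overlap in either tissue. All 8 cKO values lay below the negative control median of their own array, as did 2 of the 4 AF CTR values, so the lower end of these changes sits in background.

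S100b, a calcium-binding protein used as a marker of Schwann cells, astrocytes and cartilage cells alike, was at 9.91, 9.18, 10.28 and 9.90 in NP CTR and at 8.41, 7.91, 8.73 and 8.38 in NP cKO. The change was -1.46 (SE 0.26), 2.74-fold lower. The AF CTR arrays read 9.46, 10.18, 9.76 and 9.88 and the AF cKO arrays 8.35, 9.27, 8.89 and 8.60, a change of -1.04 (SE 0.26), 2.06-fold lower, or -1.16 without AF CTR replicate 1. Every cKO array was below every CTR array of the same tissue, and the narrowest gap was between 9.27 and 9.46 in AF. All 16 values were above their array's negative control median. Only those of NP CTR replicate 3 and AF CTR replicate 2 exceeded 95% of the negative controls, so the fold sizes were read within the range of the controls.

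**Figure D1:**
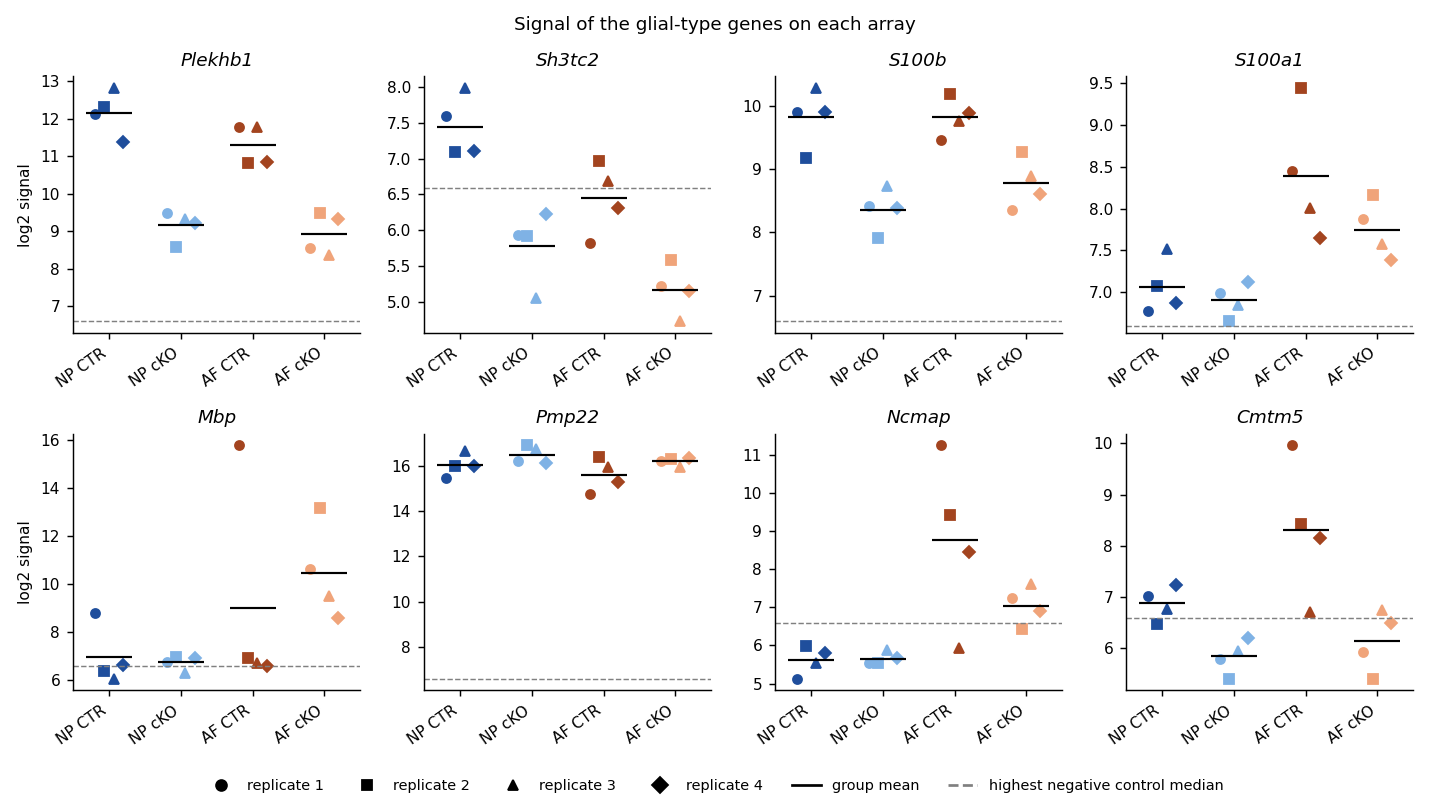
Log2 signal of the 8 genes on each of the 16 arrays, with 1 panel per gene and its own vertical scale; symbols give the replicate, bars the group mean and the dashed line the highest negative control median (6.59). Plekhb1, Sh3tc2 and S100b are lower on all cKO than on all CTR arrays of each tissue, whereas Mbp reaches 15.77 on 1 AF CTR array and 13.16 on 1 AF cKO array.

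The other S100 member did not separate by genotype. S100a1, a calcium sensor of muscle and cartilage, was at 6.77, 7.08, 7.52 and 6.87 in NP CTR and 6.99, 6.65, 6.85 and 7.12 in NP cKO, a change of -0.15 (SE 0.30). The AF CTR arrays read 8.45, 9.44, 8.01 and 7.65 and the AF cKO arrays 7.87, 8.16, 7.58 and 7.38, a change of -0.64 (SE 0.30). It was -0.62 without AF CTR replicate 1 and -0.29 without AF CTR replicate 2. The groups overlapped in both tissues.

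Pmp22, a tetraspan protein of compact peripheral myelin that is also made by many non-neural cells, was bright on all 16 arrays. It was at 15.45, 15.99, 16.68 and 15.99 in NP CTR and at 16.20, 16.91, 16.73 and 16.11 in NP cKO, a change of 0.46 (SE 0.31). Signals were 14.77, 16.39, 15.96 and 15.29 for AF CTR and 16.23, 16.31, 15.94 and 16.34 for AF cKO, a change of 0.60 (SE 0.31), or 0.33 without AF CTR replicate 1. Its genotype groups overlapped in both tissues, and the mean was higher, not lower, in cKO.

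Mbp, which compacts the cytoplasmic face of the myelin membrane, varied more between arrays of a group than between genotypes. It was at 15.77, 6.93, 6.73 and 6.61 in AF CTR, so a single array carried it and the other 3 were near the negative controls. In AF cKO it was at 10.64, 13.16, 9.51 and 8.61. In NP CTR it was at 8.78, 6.38, 6.07 and 6.64, and in NP cKO at 6.77, 6.99, 6.31 and 6.91. The AF change was 1.47 (SE 1.45) and became 3.72 without AF CTR replicate 1, with the sign kept and the size set by that array, and the NP change was -0.22 (SE 1.45).

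Mobp, an oligodendrocyte myelin protein, peaked on the same 2 arrays as Mbp. It was at 9.34 on AF CTR replicate 1 and at 7.95 on AF cKO replicate 2, and at 6.14 or lower on the other 14. Those 14 values were below the negative control median of their own array, so the order of Mobp among them is within background. On AF cKO replicates 1, 3 and 4, Mbp was at 10.64, 9.51 and 8.61 and Mobp at 6.01, 5.00 and 4.73. Over the 16 arrays, with each group's mean subtracted, Mbp and Mobp had Pearson's r of 0.97 and Spearman's rho of 0.90, and r was 0.84 without the 2 arrays on which Mbp lay farthest out. Mobp had the highest r with Mbp of 18541 genes compared. The next genes were Syt8 (0.90), Bmp8a (0.89), Plvap (0.88) and Cx3cr1 (0.88). Syt8, Plvap and Cx3cr1 had mean signals of 5.10, 5.91 and 5.18, below the lowest negative control median of the arrays. All correlations here are descriptions, and arrays of 1 animal share their source.

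Of Plekhb1, Sh3tc2 and S100b, only Plekhb1 was at the top of its group with Mbp and Mobp on AF CTR replicate 1. Mbp was at 15.77 there and Plekhb1 at 11.77, the same as on AF CTR replicate 3 where Mbp was at 6.73. S100b and Sh3tc2 were at 9.46 and 5.82 on AF CTR replicate 1, each the lowest value of its AF CTR group. On AF cKO replicate 2, where Mbp was at 13.16, these 3 genes were at the top of their AF cKO group (9.48, 9.27 and 5.58) and each still below every AF CTR array. With group means subtracted, r with Mbp was 0.30 for Plekhb1, -0.16 for S100b and -0.25 for Sh3tc2. Without the 2 arrays on which each of these genes lay farthest out, it was 0.36, -0.27 and 0.40, so the sign for Sh3tc2 rests on those arrays. With Mobp the values were 0.37, -0.06 and -0.20, or 0.44, -0.16 and 0.42 without them. The mean of 10 structural myelin genes other than the members, Gjc3 among them, did divide by genotype. It was 6.50 to 6.79 over NP CTR and 6.09 to 6.22 over NP cKO arrays. In AF it was 7.13 to 7.30 over CTR and 6.2 to 6.53 over cKO arrays. Only Gjc3 of the 10 was called by limma in either tissue. The median change of the 10 was -0.16 in NP, with 6 lower and 4 higher. It was -0.20 in AF, with 8 lower and 2 higher. The large drop of Gjc3 weighs on the mean, so the division is not read as a change of the class. Leaving out both arrays with raised Mobp, a choice made after seeing the data, the AF changes were -2.39 for Plekhb1, -1.32 for S100b and -1.62 for Sh3tc2.

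**Figure D2:**
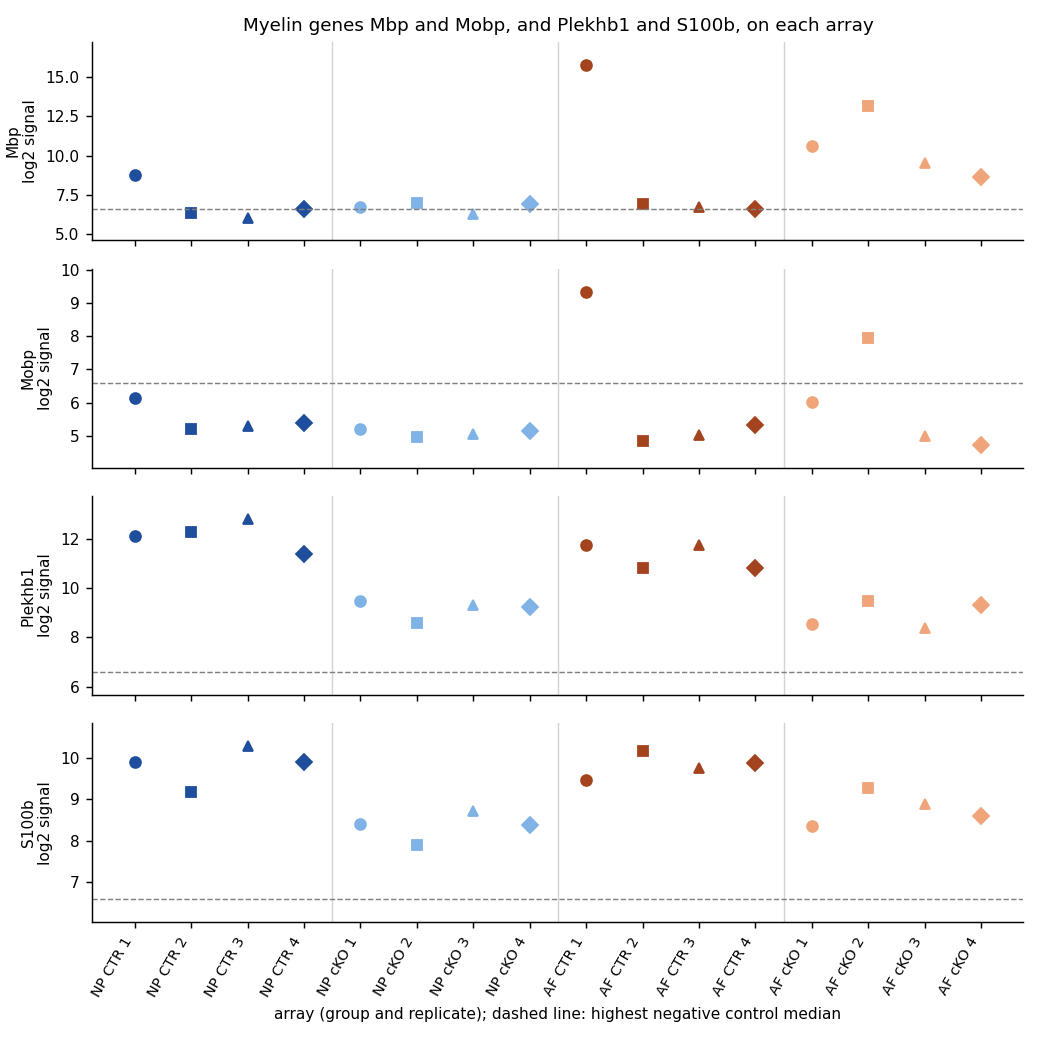
Log2 signal of Mbp, Mobp, Plekhb1 and S100b on each array, in 4 panels with separate vertical scales; colours give the group and symbols the replicate, and the dashed line is the highest negative control median (6.59). Mbp and Mobp peak together on AF CTR 1 (15.77 and 9.34) and AF cKO 2 (13.16 and 7.95), while Plekhb1 and S100b divide by genotype on all arrays of each tissue.

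Ncmap, a small membrane protein of Schwann cell myelin, was largely an annulus signal. It was at 11.25, 9.43, 5.94 and 8.44 in AF CTR and at 7.24, 6.44, 7.60 and 6.90 in AF cKO. The AF change was -1.72 (SE 0.67) with overlapping groups, since AF CTR replicate 3 was below every AF cKO array, and it was -0.89 without AF CTR replicate 1. Signals were 5.13, 5.98, 5.55 and 5.80 for NP CTR and 5.54, 5.55, 5.88 and 5.66 for NP cKO, below the negative control median on all 8 arrays, so no NP change could be read.

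Cmtm5, a MARVEL-domain membrane protein found in oligodendrocytes, was at 9.96, 8.43, 6.71 and 8.15 in AF CTR and at 5.92, 5.41, 6.74 and 6.50 in AF cKO. The AF change was -2.17 (SE 0.46), or -1.62 without AF CTR replicate 1, and the groups touched only through AF CTR replicate 3 and AF cKO replicate 3. Signals were 7.03, 6.47, 6.77 and 7.24 for NP CTR and 5.80, 5.41, 5.95 and 6.21 for NP cKO, a change of -1.03 (SE 0.46) with every cKO array below every CTR array. The NP cKO values were all below the negative control median of their array.

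Within AF CTR, Ncmap and Cmtm5 had the same order of arrays as matrilin-3 (Matn3), a cartilage matrix protein, which was at 15.82, 12.69, 6.03 and 10.26. The mean of the osteoblast list (12.52, 11.83, 9.61 and 10.64) and that of the neutrophil list (12.02, 7.74, 6.04 and 7.22) had this order too. Col2a1, the main cartilage collagen, had replicates 3 and 4 the other way round (16.01, 14.43, 13.14 and 12.96). The part of these cell types in the spread was not tested. With group means subtracted, Matn3 had r of 0.96 and rho of 0.56 with Ncmap, the highest r of 18541 genes, and r of 0.62 without the 2 arrays farthest out in Ncmap. The next genes were Panx3 (0.95), Papss2 (0.95), Slc38a3 (0.94) and Car12 (0.94). Cmtm5 had its highest r with Ppif (0.93), Crispld1 (0.92), Ccn6 (0.91), Gjb6 (0.91) and Matn3 (0.89), and Ncmap and Cmtm5 had r of 0.88 with each other, or 0.43 without the 2 arrays farthest out in Ncmap. These values rest largely on AF CTR replicates 1 and 3.

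**Figure D3:**
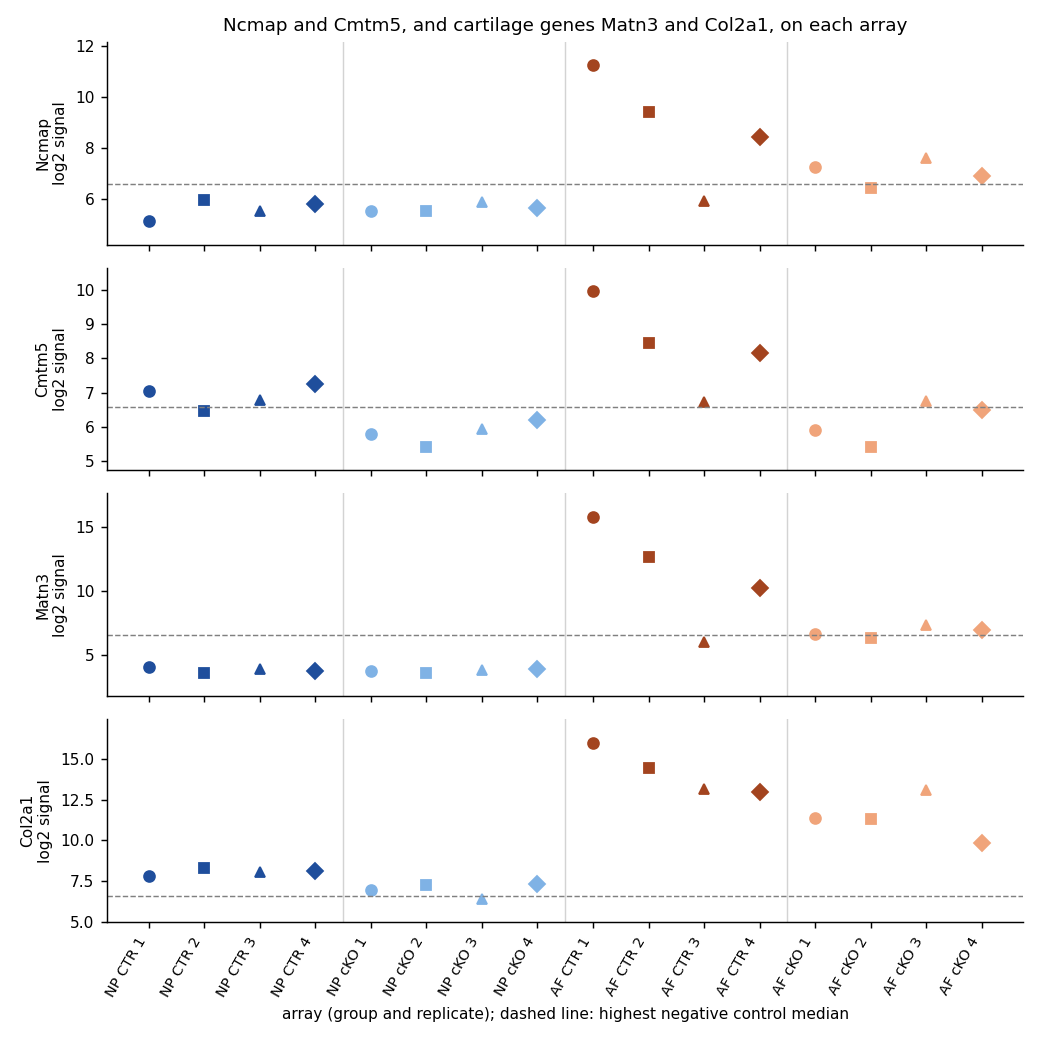
Log2 signal of Ncmap, Cmtm5, Matn3 and Col2a1 on each array, in 4 panels with separate vertical scales; colours give the group, symbols the replicate and the dashed line the highest negative control median (6.59). AF CTR 1 is the highest array for all 4 genes (11.25, 9.96, 15.82 and 16.01), and AF CTR 3 is the lowest AF CTR array for Ncmap, Cmtm5 and Matn3.

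The genes most like the remaining members were named by the same measure over 16 arrays. The highest r was 0.87 with Pex26 for Plekhb1, 0.85 with Dagla for Sh3tc2, 0.90 with Mast1 for S100b, 0.87 with Kcnn3 for S100a1 and 0.93 with Psmc1 for Pmp22. The mean signals of Mast1 (4.12) and Pex26 (4.90) were below the lowest negative control median of the arrays (6.14). Plekhb1 was also close to Acot2 (0.87) and to Adamts5 (0.86), an aggrecan-cleaving protease. Among themselves, Plekhb1 and S100b had r of 0.16, Plekhb1 and Sh3tc2 0.17 and S100b and Sh3tc2 0.32. Without the 2 arrays farthest out the values were 0.07, 0.12 and 0.57.

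Counted together, 6 of the 8 members had a lower mean and 2 a higher mean in NP cKO, and the median of their differences was -0.62 beside 0.00 for all probe sets. In NP the groups did not overlap for 4 members, all lower in cKO (Plekhb1, Sh3tc2, S100b and Cmtm5), beside 1.82% of the 22206 probe sets. In AF 6 members were again lower and 2 higher, with a median difference of -1.16 beside -0.03 for all probe sets. The AF groups did not overlap for 3 members, all lower (Plekhb1, Sh3tc2 and S100b), beside 2.54% of probe sets. Because 3 members were chosen for these drops, nothing is read from those counts. The AF change minus the NP change was 0.64 (SE 0.47) for Plekhb1, 0.38 (SE 0.42) for Sh3tc2, 0.41 (SE 0.37) for S100b, -1.76 (SE 0.95) for Ncmap and -1.14 (SE 0.65) for Cmtm5. For Ncmap the NP part of that value is background.

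**Figure D4:**
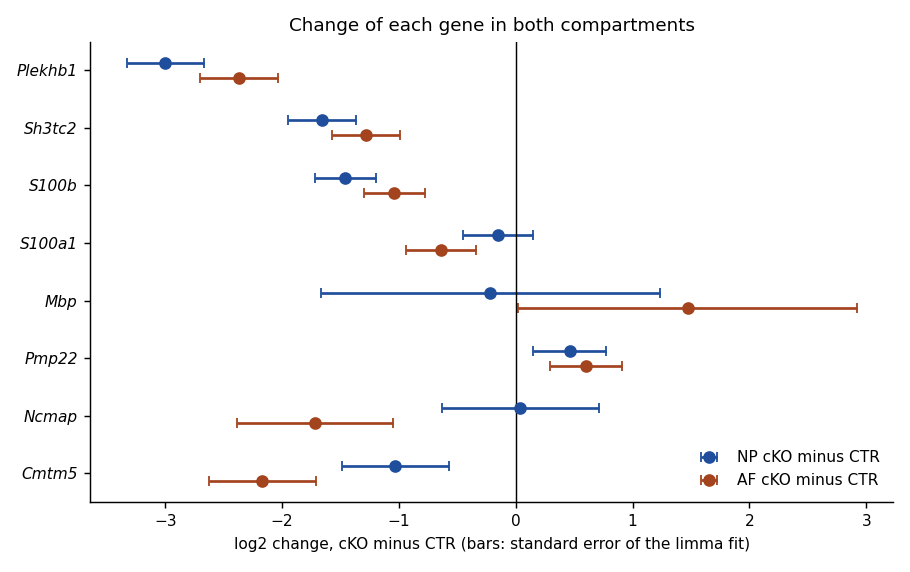
Change of each gene, cKO minus CTR, on the log2 scale (horizontal axis) in NP and AF; points are limma estimates from 4 arrays a group and bars their standard errors. Plekhb1, Sh3tc2 and S100b lie left of 0 in both tissues, Ncmap at 0.04 in NP and -1.72 in AF, and Mbp has the widest bars (SE 1.45).

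The comparison of NP with AF in control discs was not used to choose the members and was tested with limma, with Benjamini-Hochberg adjustment over all 22206 probe sets. At an adjusted p under 0.05, 9.96% of probe sets were higher and 10.1% lower in NP. With each array centred on its median the calls were 3293 higher and 1769 lower instead of 2211 and 2251, because centring moved the median difference of all probe sets from 0.04 to 0.16. Of the 8 members 1 was higher in NP, 3 were lower and 4 did not pass. S100a1 was lower in NP by -1.33 on the log2 scale (SE 0.30, adjusted p = 0.00419), with all 4 NP arrays below all 4 AF arrays, and by -1.31 without AF CTR replicate 1 (adjusted p = 0.0122). Ncmap was lower by -3.15 (SE 0.67, adjusted p = 0.00251), with 3 of the 4 AF arrays above every NP array, and by -2.32 without AF CTR replicate 1 (adjusted p = 0.00561). All 4 of its NP CTR values were below their array's negative control median, so the size of this difference is not a measured fold.

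Sh3tc2 was higher in NP CTR by 0.99 (SE 0.29, adjusted p = 0.0222), with no overlap between the tissues, although its AF values were at background. The call was lost without any 1 of AF CTR replicates 1 and 4 and NP CTR replicates 1 and 3 (adjusted p up to 0.0828). Cmtm5 was lower in NP by -1.44 (SE 0.46, adjusted p = 0.033), and without AF CTR replicate 1 the difference was -0.89 with adjusted p = 0.117. Its call was also lost without AF CTR replicate 2 or 4 or NP CTR replicate 1, 2 or 3, over which the adjusted p was between 0.0502 and 0.0872.

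Plekhb1 was 0.86 higher in NP (SE 0.33, adjusted p = 0.078), and passed only without NP CTR replicate 4 (1.11, adjusted p = 0.03) or with median centring (0.98, adjusted p = 0.0395). The S100b means were 9.82 in both tissues, and the 95% interval of the difference ran from -0.55 to 0.54 (adjusted p = 0.993). Pmp22 differed by 0.42 (SE 0.31, adjusted p = 0.37). Mbp differed by -2.04 (SE 1.45, adjusted p = 0.35), and by 0.21 without AF CTR replicate 1.

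Defining markers of Schwann cells and oligodendrocytes were read on the same arrays. Of 8 Schwann cell markers 5 were matched to a named probe set: Sox10, the lineage's transcription factor, the myelin genes Mag and Pmp2, the cadherin Cdh19 and Egr2. Sox10, Mag, Pmp2 and Cdh19 were below the negative control median of their own array on all 16 arrays, with group means from 4.28 (Mag and Pmp2 in AF cKO) to 6.04 (Sox10 in NP CTR). Egr2, which many stimulated cells also express, had group means from 6.65 in NP cKO to 7.80 in AF CTR. The mean of the 5 markers was 5.66 to 5.81 over the NP CTR arrays, 5.29 to 5.48 in NP cKO, 5.40 to 5.55 in AF CTR and 5.11 to 5.24 in AF cKO. None of the 5 passed limma's test between genotypes in either tissue, and none reached an unadjusted p under 0.05 (0 of 5 in NP and in AF), all 5 being lower in NP cKO and 4 of 5 in AF cKO.

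Of the 7 oligodendrocyte markers, Mog, Opalin, Olig1 and Cldn11 were below the negative control median on all 16 arrays. Olig2 and Ermn were near it, with group means from 6.06 to 6.77, and Mobp was above it on the 2 arrays already named. The mean of the list was 6.43 on AF CTR replicate 1 and between 5.06 and 5.81 on the other 15 arrays. Against this, Plekhb1 and S100b were above the negative control median on every array. Their cKO values still lay within the range of the controls, exceeding 86.5% to 94.1% of them for Plekhb1 and 79.6% to 93.3% for S100b. Neuronal genes (8 of 9 measured) averaged 5.31 to 5.97 over the arrays, with the highest value again on AF CTR replicate 1.

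**Figure D5:**
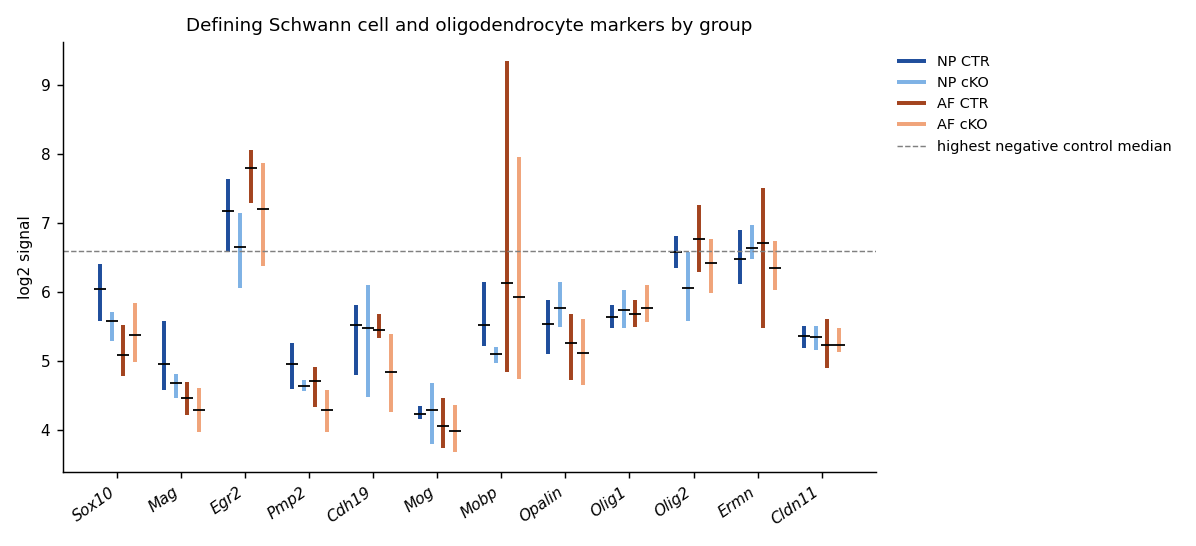
Range over 4 arrays (coloured bars) and mean (black dashes) of the log2 signal of 5 Schwann cell and 7 oligodendrocyte markers in each group, with the highest negative control median (6.59) as a dashed line. Sox10, Mag, Pmp2, Cdh19, Mog, Opalin, Olig1 and Cldn11 lie under the line in every group, and the Mobp bar of AF CTR reaches 9.34.

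Most of the wider set of Schwann cell and myelin genes did not pass the test. Of 38 listed genes other than the members 35 were measured, 16 higher and 19 lower in NP cKO, with a median change of -0.02. Only Gjc3 was called there, by limma at adjusted p under 0.05, beside 0.122% of all probe sets called lower. In AF 11 were higher and 24 lower with a median of -0.18, and Gjc3 and Adgrg6 were called, beside 0.0856% called lower. For 15 of the 35 no array exceeded the highest negative control median. By class, the AF medians were -0.20 for 10 structural myelin genes, -0.19 for 5 genes of myelin lipid synthesis, -0.12 for 10 Schwann cell regulators and -0.06 for 10 genes of non-myelinating Schwann cells.

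Gjc3, a gap junction connexin of myelinating glia, was bright and changed most. It was at 12.15, 13.02, 12.98 and 11.17 in NP CTR and 8.46, 7.94, 7.10 and 8.63 in NP cKO, and fell by 4.30 on the log2 scale (SE 0.43, adjusted p = 4.88e-05). Signals were 16.82, 16.11, 14.86 and 15.64 for AF CTR and 9.58, 9.55, 9.87 and 9.0 for AF cKO, and it fell by 6.36 (SE 0.43, adjusted p = 1.11e-07). It stayed called in both tissues under all 26 alternatives tried. In control discs it was lower in NP than in AF by -3.53 (SE 0.43, adjusted p = 1.27e-05), and the AF change minus the NP change, -2.06 (SE 0.61), had an adjusted p of 0.732.

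Adgrg6, an adhesion receptor that Schwann cells need to start myelination and that cartilage also expresses, was at 13.34, 13.03, 10.97 and 12.03 in AF CTR and 9.76, 9.84, 10.43 and 9.96 in AF cKO. It fell there by 2.35 (SE 0.39, adjusted p = 0.0163). The call was lost in 5 of 26 alternatives, among them leaving out AF CTR replicate 2 or AF cKO replicate 1 or 2, with adjusted p up to 0.228. In NP the group means were 8.33 in CTR and 8.38 in cKO, and the AF change minus the NP change was -2.40 (SE 0.55, adjusted p = 0.667).

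Relatives of the members were not called by limma between genotypes in either tissue. Of the 14 other S100 genes measured, 10 were higher and 4 lower in each tissue's cKO, with medians of 0.11 in NP and 0.34 in AF, and 1 in NP and 6 in AF had an unadjusted p under 0.05. S100a6 averaged 12.99 in NP CTR and 13.56 in NP cKO, and S100a11 averaged 15.76 and 15.71. S100a8 and S100a9, abundant in neutrophils, averaged 9.82 and 10.39 in AF CTR and 15.38 and 14.85 in AF cKO, with changes of 5.56 (SE 1.51, adjusted p = 0.197) and 4.46 (SE 1.13, adjusted p = 0.171). Of 11 paralogs of the other members 6 were higher and 5 lower in each tissue, with medians of 0.02 in NP and 0.09 in AF, and 1 in each had an unadjusted p under 0.05. Plekhb2 averaged 10.85 in NP CTR and 10.59 in NP cKO, a change of -0.26 (SE 0.25).

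Other cell types moved alongside the AF changes. The 8 neutrophil markers were all higher on average in AF cKO, with a median change of 3.58, and their mean ran from 6.04 to 12.02 over AF CTR arrays and from 9.69 to 13.83 over AF cKO arrays. All 10 skeletal muscle markers were higher, with a median of 1.23 and array means of 6.87 to 7.63 in CTR and 6.88 to 10.26 in cKO. All 4 erythroid markers measured (median 1.26, array means 6.18 to 7.41 in CTR and 6.65 to 8.82 in cKO) and all 6 endothelial markers (median 0.56, 6.42 to 8.21 and 6.95 to 8.12) were also higher, and limma called no gene of these 4 lists. At an unadjusted p under 0.05 there were 8 neutrophil, 6 muscle, 3 erythroid and 2 endothelial genes. Of 18 cartilage genes 16 were lower in AF cKO, with a median of -1.63, and Acan, Fgfr3 and Ucma were called. In NP 13 of the 18 were lower, with a median of -0.35, none called and 5 at an unadjusted p under 0.05. The part of these cell types in the AF values of the members was not tested. In NP the corresponding medians were 0.06 for neutrophil, 0.17 for muscle, 0.07 for erythroid and 0.16 for endothelial markers.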

How the data were processed

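RNA of NP and AF tissue was hybridised to 1-colour Affymetrix arrays. Per the labels, the authors normalised the arrays by sst-RMA (robust multi-array averaging with a signal space transformation), and the deposited values are log2. Transcriptome Analysis Console is named by the submitters' processing notes, without a version. Of 28846 probe sets, 6640 controls were left out and 22206 tested: 19572 carry 1 gene symbol from the platform annotation and 2634 none. No detection call was used, so probe sets near the negative controls were kept. The number of arrays limits the precision.

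The deposited log2 values were fitted as 4 group means over all 16 arrays with limma 3.58.1 (R 4.3.3; lmFit, eBayes) with Benjamini-Hochberg adjustment over all probe sets, and the code was tested on simulated data. A call is an adjusted p under 0.05. Per gene the probe set with the highest mean was used. The members, gene lists and rules were chosen with earlier results of these data known. Named genes were the 8 members and list genes called in the comparison described, with up to 4 more of the brightest. Genes were also named from the 5 with the highest r for each member, predicted genes left out. All 5 are given for Mbp, Ncmap and Cmtm5, and fewer for the other members. The dimmer defining glial markers, S100a8, S100a9, Plekhb2, Col2a1, Dcn and Comp were named outside that rule, after their values were seen. NP and AF share an animal by the codes in the labels. Their deviations from the group means correlated at -0.293 to 0.348 over the 8 animals. Alternatives changed the normalization (centring arrays on their medians, or renewed quantile normalization), the probe sets (dim ones removed, or 1 for each gene), the variance model (trend with intensity, weights for arrays), the arrays (8 alone, or each left out) and the pairing (animal or replicate number as a block). Protein sequences, and promoter windows of Sh3tc2 and Mbp, were not used here.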

Additional observations from a re-analysis of the deposited data

Results flagged for a closer look

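Mbp in AF CTR replicate 1 stood far from the other arrays of its group. Its signal was 15.77 and the nearest other AF CTR array was at 6.93, a gap of 0.965 of the group's whole range. Of 32 groups checked (8 genes in 4 groups of 4 arrays) this was the 1 that stood out, and chance alone marks about 1 group in 20. Mobp was at 9.34 on the same array.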

How the results depend on the processing

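The NP and AF changes of Plekhb1, Sh3tc2, S100b, Cmtm5, S100a1 and Pmp22 and the AF changes of Mbp and Ncmap kept their direction under every alternative that could be run, 26 for each gene except Sh3tc2 with 25, which the filter on dim probe sets removed. The NP changes of Mbp (-0.52 to 0.38) and Ncmap (-0.12 to 0.16) did not. No gene had another probe set to try. For the AF change minus the NP change, the Cmtm5 value of -1.14 became -0.34 without both arrays with raised Mobp, and Pmp22 changed sign within its error (-0.17 to 0.41). The other ranges were -2.71 to -0.73 for Ncmap, 0.31 to 0.89 for Plekhb1, 0.04 to 0.63 for Sh3tc2 and 0.13 to 0.62 for S100b. In control discs the S100b difference between NP and AF changed sign with median centring (0.12), with a second quantile normalization (0.03) and when single arrays were left out (-0.16 to 0.21). That of Mbp became 0.21 without AF CTR replicate 1 and also 0.21 without both Mobp arrays, within a leave-one-out range of -2.84 to 0.21. The calls of S100a1 and Ncmap held under all 27 alternatives. Cmtm5 also lost its call with array weights (adjusted p = 0.096) and with 8 arrays alone (0.0658). The number of called probe sets depended more on single arrays. In AF it was 22, and 8 with the 8 AF arrays alone, 37 after a second quantile normalization, 70 without both Mobp arrays and 12 to 142 when leaving out single arrays, highest without AF CTR replicate 1. In NP it was 27, and 10 to 31 when leaving out single arrays, lowest without NP CTR replicate 3. For the AF change minus the NP change limma called 0, with 1496 at an unadjusted p under 0.05, and 1 after a second quantile normalization, 1 without both Mobp arrays and 0 to 3 when leaving out single arrays. Between control tissues 4462 were called, and 2764 of 11753 with the filter on dim probe sets. With the replicate block the counts were 26 in NP, 20 in AF, 0 for their difference and 4559 between control tissues, and with the animal as a fixed block 4175 between control tissues. Neither paired fit changed a call of the 8 genes. Signals near the negative controls, as for Sh3tc2, Ncmap in NP and Cmtm5 in cKO, limit what these arrays can show.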
